A study of Mus musculus and synthetic construct with 32 samples.

Results

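RNAs with G before a central adenosine in the consensus context of N6-methyladenosine (m6A) were tested for binding to the YTH domain of human YTHDC2. The 9-mers described here have A, G or T at position 3, G at position 4, A at position 5, C at position 6 and A, C or T at position 7. Positions are counted from 1 at the 5′ end, position 5 is the middle, and T stands for U as in the deposited sequences. The rule uses sequence alone and takes 2304 of the 65536 9-mers with A in the middle, 3.52% of the table. These 2304 split into 9 central 5-mers (positions 3 to 7) of 256 members each. Positions 1, 2, 8 and 9 are free, and 3 bases are possible at positions 3 and 7. Every member had a fold and a p-value, and no filter on low values was applied.

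The values come from RNA Bind-N-Seq, in which a pool of synthetic RNAs is offered to an immobilised protein and the retained RNAs are sequenced. The pool held single-stranded RNAs of 21 nt, random except for an m6A in the middle. In 4 libraries the RNAs were retained by Ni-NTA agarose beads that carried a 6xHis-SUMO fusion of the YTH domain, and in 4 control libraries by the same beads with no protein. The rest of the 32 libraries of the series were mouse gonad RNA and are not used here. The assay thus holds an isolated human domain and synthetic RNA, without the helicase part of the protein, and all 8 libraries started from the methylated pool. Each fold is the ratio of YTH domain over beads in the authors' deposited table. A fold of 1 thus means equal values as the authors computed them, and need not mean equal amounts of retained RNA. Whether every 9-mer was read around the m6A of its RNA is not given in the sources used here, so the A at position 5 is called the central A. The spread between libraries behind a fold is not given here, because the 8 columns of single libraries could not be matched to the labels.

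Methylation of mRNA adenosines is placed mainly by the METTL3 and METTL14 complex, which prefers A followed by C and preceded by a purine, and GGACT is its best known mammalian site. YTH domains hold the methyl group of m6A in a pocket of aromatic residues. YTHDC2 joins such a domain to an RNA helicase and is needed for germ cells to pass through meiosis.

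The 9-mers below are printed to show the range of the members. Capitals mark positions 3 to 7, the part set by the rule.
highest member: tcGGACCat
after it: ccAGACTgt
next highest: tcGGACCac
highest with the 5-mer AGACA: gtAGACAca
highest with the ending AAA: acAGACAaa
highest with the 5-mer GGACT: ccGGACTgt
lowest with the 5-mer GGACT: ttGGACTct
lowest member: tgTGACCtt

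The median member had a fold of YTH domain over beads below 1. The median fold was 0.858, with quartiles of 0.701 and 1.12, and 787 of 2304 (34.2%) lay above 1. The folds of the whole table were centred below 1 as well, with a median of 0.774 and 30.3% above 1. Relative to that centre, which is -0.37 on the log2 scale, the median member stood at 1.11 times the median 9-mer. Members therefore lay below 1 and slightly above the middle of the table. Their folds reached from 0.446 to 16.6, a narrower range than that of all 9-mers, 0.342 to 135.

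A 9-mer was called where the p-value of the authors' deposited table, adjusted by Benjamini-Hochberg over all 65536 9-mers, was below 0.05. The table holds 9 different p-values, all of them steps that an exact two-sided test of 4 against 4 libraries can give. Its smallest, 0.0286, becomes an adjusted p of 0.0443, and the next step becomes 0.0791. A call therefore means a 9-mer at the smallest possible p, which 42271 9-mers (64.5%) had. Among members, 373 were called higher with the YTH domain, 16.2%, beside 17.3% of all 9-mers. Another 891 members, 38.7%, were called lower, beside 47.2% of all 9-mers. The remaining 1040 members (45.1%) were not called, against 35.5% of the table. The share called higher was thus close to the background, and the share called lower was under it. Folds of members called higher began at 1.10, and folds of members called lower ended at 0.915. Calls did not follow the size of the fold alone: the highest uncalled member had a fold of 1.77 and the lowest 0.472.

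High folds were rarer among the members than in the table. A fold of at least 1.5 was found in 233 members (10.1%), beside 12.4% of all 9-mers. A fold of at least 2 was found in 96 members (4.17%), beside 6.06%. Low folds, of at most 1 over 1.5, were rarer as well, with 439 members (19.1%) beside 33.2%. Of the top 1% of all 9-mers, which began at a fold of 4.65, 7 were members, or 0.304% of the members. By contrast, 62.2% of the members lay in the upper 50% of the table. The members were concentrated in the middle of the table, with few at either end.

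The central 5-mer ordered the members, and the site best known from mRNA stood near the bottom. GGACT had a median fold of 0.690, with quartiles of 0.625 and 0.785, the eighth of the 9 medians. Of its 256 members, 11 (4.30%) were called higher, beside 17.3% of all 9-mers, and 194 (75.8%) lower, beside 47.2%. A fold above 1 was found in 21 of them. Only TGACT lay lower, at a median of 0.641 with quartiles of 0.568 and 0.727, and 197 of its members were called lower. Both of these 5-mers end in T, and their middle ranges overlap.

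The 3 highest 5-mers all had a purine at position 3 and C or A at position 7. AGACC had the highest median, 1.16, with quartiles of 0.936 and 1.36. GGACC followed at 1.09 with quartiles of 0.899 and 1.40, and AGACA at 1.05 with quartiles of 0.880 and 1.38. Their middle ranges overlap almost wholly, so the order among the 3 is not firm. In calls GGACC led with 95 members higher and 32 lower, against 79 and 26 for AGACC and 64 and 29 for AGACA. These were the only 3 of the 9 with a median above 1.

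Between these ends, GGACA had a median of 0.967 (63 members called higher, 57 lower) and TGACA one of 0.869 (34 higher, 86 lower). AGACT stood at 0.770, with 20 members higher and 140 lower. TGACC stood at 0.747, with 2 (0.781%) higher and 130 (50.8%) lower, beside 17.3% and 47.2% of all 9-mers. A change of the base at position 7 from C to T thus went with a median lower by a factor that differed between contexts, from 1.16 to 0.770 after AGA, from 1.09 to 0.690 after GGA and from 0.747 to 0.641 after TGA.

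Read by single positions, T had the lowest median at positions 1, 2, 3 and 7. At position 7 the median was 0.695 for T, against 0.964 for A and 0.976 for C. Of the 768 members with T there, 36 (4.69%) were called higher and 531 (69.1%) lower. A had 161 (21.0%) higher and 172 (22.4%) lower. The shares in the whole table were 17.3% higher and 47.2% lower. At position 3 the median was 0.738 for T, 0.892 for G and 0.962 for A. There 41 members with T (5.34%) were called higher, against 163 with A (21.2%) and 169 with G (22.0%). The shares with A and G thus lay slightly above the 17.3% of the whole table. At position 1 T again had the lowest median, 0.766, while C stood at 0.868, A at 0.895 and G at 0.899. At position 2 the medians lay closest together, at 0.815 for T, 0.841 for G, 0.857 for C and 0.927 for A.

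At the last positions, 8 and 9, A had the highest median. At position 8 the median was 1.00 for A, against 0.835 for T, 0.827 for G and 0.817 for C. With A there, 160 of 576 members (27.8%) were called higher, beside 17.3% of all 9-mers, and with each other base 68 to 75. At position 9 the median was 0.966 for A, 0.866 for C, 0.857 for T and 0.791 for G. Here 151 members with A (26.2%) were called higher against 59 with G (10.2%).

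The content of A and T at the 6 positions that can vary summed up the same pattern. Members with no T at these positions numbered 324 and had a median of 1.19, with 122 (37.7%) called higher and 6 (1.85%) lower. The shares in the whole table were 17.3% higher and 47.2% lower. With 1 T the median was 0.916, with 2 it was 0.785 and with 3 it was 0.710. In the other direction, members with no A had a median of 0.690 and those with 4 had 1.34. All 16 members with 5 A bases had a fold above 1, with a median of 2.41. The number of G and C bases together moved the median little over most of its range, from 0.839 to 0.895 between 0 and 4 such bases. Above that the median was higher, at 0.941 over the 128 members with 5 and 1.18 over the 16 members with 6.

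A sum of separate effects of the 6 positions described 42.1% of the variance of log2 folds over the 2304 members. Position 7 alone accounted for 17.6%, position 3 for 10.9%, position 8 for 5.69%, position 9 for 4.06%, position 1 for 2.83% and position 2 for 0.995%. Combinations held much of the rest. Adding the combinations of positions 7 and 9 raised the share to 50.3%, and adding all pairs of positions raised it to 72.7%. These shares describe the folds and are not a test, since 9-mers are not replicates.

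The ending of the 9-mer, positions 7 to 9, showed where combinations mattered. Of 48 possible endings the highest was AAA, with a median fold of 2.51 over its 48 members and quartiles of 1.90 and 3.06. With this ending 45 members (93.75%) were called higher, beside 17.3% of all 9-mers, and 0 lower, beside 47.2%. The lowest fold with AAA was 0.833. ACA came next with a median of 1.55 (30 higher, 2 lower) and CAT with 1.36 (26 higher, 3 lower). At the other end TGC had a median of 0.608, with 0 called higher and 43 (89.6%) lower. The 11 lowest endings all began with T.

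The forms named next were also chosen after their values were seen. All 16 members of the form AGACAaa had folds between 2.30 and 4.52. All 16 were called higher, which follows from these folds, since no member above 1.77 was left uncalled. The highest was acAGACAaa and the lowest ttAGACAaa in the authors' deposited table. With the same 5-mer, the 16 members of the form AGACAtc lay between 0.676 and 1.21, with 8 called lower. These 2 forms do not overlap, but they were chosen as the highest and the lowest of the 5-mer by median. That choice favours a gap between their ranges, so the gap is not a test of the ending. Other forms do overlap. AGACAca, for instance, ran from 1.37 to 4.69. GGACAaa had 16 of 16 called higher and folds from 1.51 to 3.88. TGACAaa had 13 of 16 called higher and folds from 0.833 to 2.98. Members of 1 form share 7 bases, so they are not independent of each other.

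Among members with T at position 7, the ending TTC stood apart from the low level of the rest. Its median was 1.27 over 48 members, while all members with T at position 7 had a median of 0.695. With TTC, 27 (56.25%) were called higher, beside 17.3% of all 9-mers, and 1 (2.08%) lower, beside 47.2%. AGACTtc had a median of 1.92 and folds from 1.02 to 2.54. GGACTtc had a median of 1.19, against 0.602 for GGACTct, whose folds ran from 0.514 to 0.728. For TGACTtc the median was 1.07, against 0.571 for TGACTga. The form GGACTtc ran from 0.700 to 1.57, and it held 12 of the 21 members with GGACT above 1. The highest of them, ccGGACTgt, belonged to a form whose median was 0.802. The same last 2 bases were not high with A at position 7. There AGACAtc and TGACAtc were the lowest forms of their 5-mers, with medians of 0.814 and 0.675. With C at position 7, the ending CTC had a median of 1.08 over 48 members, and 15 (31.25%) were called higher and 4 (8.33%) lower. Its forms ranged from a median of 1.28 for AGACCtc to 0.913 for TGACCtc.

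The highest member, tcGGACCat, had a fold of 16.6 in the authors' deposited table (adjusted p = 0.0443, from the exact steps above). It ranked 75 among all 65536 9-mers, and the next member ranked 376. From its bases taken one by one, the sum of position effects gives a fold of 1.10, so the measured fold was 15.1 times that value. Its 16 single-base variants within the members had a median of 2.03 and a range from 0.643 to 5.88. Of these, 12 were called higher, beside 17.3% of all 9-mers. Every variant had to lie below the parent, which was chosen as the highest member, and the nearest was 2.82 times lower. The excess over the sum of position effects carries the same choice.

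The variants are written as the base in tcGGACCat, its position and the base in the variant. The variants nearest to the parent were T9C at 5.88, C2A at 5.79 and C2T at 5.33 in the authors' deposited table. A8C stood at 3.32, while A8G and A8T stood at 0.835 and 0.675 in the authors' deposited table, so the bases that replaced A at position 8 were not equal. At position 7, C7A gave a fold of 1.98 and C7T one of 0.914 that was not called, in the authors' deposited table. At position 3, G3A gave 1.64 and G3T gave 0.643, the lowest of the 16, in the authors' deposited table. T1A, T1C and T1G gave 1.57, 2.09 and 1.21 in the authors' deposited table. Because tcGGACCat was chosen as the highest member, T had to be the highest base at position 1 in this context. Over all members T had the lowest median at that position.

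Position 4 was compared on the same sequence as well. Replacing G at position 4 of tcGGACCat by A, C or T gave partners at 1.35, 1.65 and 1.24, per the authors' deposited table. G was the highest of the 4 bases there, in a sequence chosen for its high fold with G. The partners with C or T were added after the values were seen. The second highest member, ccAGACTgt, had a fold of 6.51, while its partner with C at position 4, ccACACTgt, had 27.6 and that with A, ccAAACTgt, had 1.03 in the authors' deposited table. For tcGGACCac, at 5.88, the partners lay between 1.14 and 1.38 in the authors' deposited table.

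The other members of the top 10 fell into the groups already named. The authors' deposited table had taGGACCat at 5.79 and ttGGACCat at 5.33, single-base variants of the highest member. It had agAGACCga at 5.31 and gtAGACAca at 4.69. The last 3 places were held in the authors' deposited table by acAGACAaa at 4.52, gtAGACAaa at 4.45 and ggAGACAaa at 4.32. All 10 were called higher, as was every member with a fold above 1.77, so these calls add nothing to the choice by fold. GGACC supplied 4 of the 10, AGACA another 4, AGACC 1 and AGACT 1.

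Each 5-mer had its own upper end. For GGACT it was ccGGACTgt at 2.81 in the authors' deposited table, the same flanks as in the second highest member. For GGACA it was cgGGACAaa at 3.88, for TGACC tcTGACCcc at 3.50 and for TGACA gcTGACAaa at 2.98 in the authors' deposited table. The highest with TGACT, ctTGACTtc, stayed below 1.5 in the authors' deposited table. Its ending was again TTC.

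The lowest members shared T at position 3. The authors' deposited table had tgTGACCtt at 0.446, ttTGACTga at 0.464 and tgTGACCcg at 0.466. Of the lowest 10 members, 8 had the 5-mer TGACT and 2 had TGACC. Among these 10, tgTGACTct at 0.472 and tgTGACTtc at 0.481 were not called (adjusted p = 0.0791 from the exact steps above) in the authors' deposited table. The others, cgTGACTct at 0.480, ctTGACTga at 0.483, agTGACTcc at 0.484, tcTGACTtg at 0.486 and tgTGACTga at 0.486 in the authors' deposited table, were called lower. The lowest with GGACT was ttGGACTct at 0.514 in the authors' deposited table. Of all 439 members with a fold of at most 1 over 1.5, 320 (72.9%) had T at position 7 and 262 (59.7%) had T at position 3. The 5-mer AGACA had no such member.

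Set against the same sequences with another base at position 4, G gave lower folds. The 2304 9-mers with A there had a median of 1.34, those with C 1.13 and those with T 1.42, against 0.858 with G. Of these, 51.5% were called higher with A, 38.9% with C and 58.3% with T, beside 16.2% of the members and 17.3% of all 9-mers. In matched sets of 4 sequences that differ only at position 4, G was the lowest in 1629 of 2304 (70.7%) and the highest in 99 (4.30%). The difference was not tested over libraries, and these values describe the folds only.

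Against A at position 4, the fold with G was a median of 0.653 times that of the partner, with quartiles of 0.532 and 0.809. G was the higher of the 2 in 222 of 2304 (9.64%). The gap depended on the surrounding 5-mer. It was widest for AGACA, with a median ratio of 0.525 and 0 of 256 higher with G. It was narrowest for GGACT, with 0.906 and 75 of 256 higher with G. With GGACC, 70 of 256 were higher with G, at a median ratio of 0.810. Against C at position 4, GGACC had a median ratio of 1.05, the only 5-mer in comparisons with A, C or T where the median favoured G.

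With A before the central A, some positions had the same lowest or highest base as in the members and others did not. The lowest base at position 7 was again T, with a median of 0.950, against 1.69 for A and 1.44 for C. Positions 8 and 9 were again highest with A, at 1.61 and 1.65. At position 3 G was lowest at 1.19, with T at 1.29 and A highest at 1.59. At position 2 G was highest at 1.43, whereas A was highest in the members, and at position 9 T was lowest at 1.21, whereas G was lowest in the members. At position 7 A stood above C, whereas the medians in the members were close, at 0.964 for A and 0.976 for C. By geometric mean A was first in the members too, at 1.05 against 1.02 for C. Across the 2304 matched sequences Spearman's rho between the folds with G and with A was 0.68. This is a description over 9-mers that share their libraries and 8 of 9 bases.

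The ending AAA was high whichever base stood at position 4. With A, G or T at position 3, its 48 9-mers had medians of 6.20 with A at position 4, 4.44 with C and 7.05 with T, against 2.51 with G. For the ending ACA the medians were 6.66 with A, 3.89 with C and 6.32 with T, against 1.55 with G. For CAT they lay closer, at 1.78, 1.42 and 2.06, against 1.36 with G. The highest 9-mer with this ending was nevertheless the member with G, at 16.6, where the highest with T was 13.8 and with A 3.56. These 3 endings were singled out after their values were seen.

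Within 9-mers that have G before the central A, position 6 was compared with positions 3 and 7 held to the same bases, over 2304 9-mers each. The median was 0.679 with A at position 6, 0.684 with G and 0.772 with T, against 0.858 with C, the base of the members. With any base at positions 3 and 7, C at position 6 had a median of 0.780 and T one of 0.779, over 4096 9-mers each. There 11.8% were called higher with C and 13.4% with T. With GAC kept, 768 9-mers with C at position 3 had a median of 0.757, which lay above the 0.738 of the members with T there and below those with A or G. Another 768 with G at position 7 had a median of 0.672, below each base of the members at that position. Of those with G at position 7, 15 (1.95%) were called higher and 578 (75.3%) lower, beside 17.3% and 47.2% of all 9-mers. Whether these gaps exceed the spread between libraries was not tested.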

How the data were processed

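RNA Bind-N-Seq measured which of a pool of methylated random RNAs were retained by the YTH domain (4 libraries) or by beads alone (4 libraries). The fold is a linear ratio of YTH domain over control for each 9-mer, computed by the authors and read per the file headers, and the deposited p-value is unadjusted, with its test not given in the sources used here. The submitters' processing notes name cutadapt for these libraries. How 9-mers were counted is not given in the sources used here, nor whether 9-mers were taken only around the central m6A, so an A at position 5 may not always be the methylated one and neighbouring windows of an RNA may both be counted. Another 8 columns have names that fit no label, and they were left aside. Depth is therefore unknown here, and no SD or interval could be given.

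The planned models of values per library could not be run, and the p-values as deposited, adjusted by Benjamini-Hochberg over all 9-mers, took their place (Python 3.11.15, pandas 2.3.3, numpy 2.4.6). The threshold was 0.05. Medians, quartiles and a least-squares fit of log2 folds on bases described the members. The adjustment and the fit were tested on simulated data. Named 9-mers were the 10 highest and 10 lowest members, the extremes of each central 5-mer, the single-base variants of the highest member and the position 4 partners of the top 3. Members, lists and endings were chosen with earlier results of these data known. Labels give no sign that libraries came from separate binding reactions, so p-values may measure technical spread.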

Additional observations from a re-analysis of the deposited data

How the results depend on the processing

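At an adjusted p below 0.01 no member was called (0 higher, 0 lower), since the smallest p in the table cannot pass it; at an unadjusted p below 0.05 the counts were 373 and 891, as in the report. Taking the direction against the median of all 9-mers, an alternative added after the data were seen, gave 497 higher and 767 lower. The median fold of the members, 0.858, became 1.11 when divided by the median of all 9-mers, 0.920 as a geometric mean and 0.841 without the endings AAA, ACA and CAT, all added later. A fold of at least 2 in place of 1.5 left 96 of 233 members. The base with the highest value was the same in 5 of 6 positions by geometric mean or by the additive fit. At position 7 these had A first in place of C. No paired analysis was possible because the columns of single libraries match no label and carry no sample number. For the same reason the filter on low values, other pseudocounts, other normalizations, other count tools, leaving out single libraries and the summed shares per library were not run, and what depth limits is unknown.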

Other observations

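The last 6 bases of the highest member also open 64 9-mers of the table in another register, which were singled out after their values were seen. Those that begin with gaccat had a median fold of 1.47, with quartiles of 0.994 and 2.94. Of the 64, 38 (59.4%) were called higher, beside 17.3% of all 9-mers, and 7 (10.9%) lower, beside 47.2%. The highest was gaccatgta at 48.4 in the authors' deposited table. Whether these 9-mers come from the same RNAs as tcGGACCat was not tested.

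Members with a fold of at least 2 were concentrated in few endings. Of these 96 members, 33 (34.4%) ended in AAA, 12 (12.5%) in ACA, 10 in CAT, 7 in CGA and 7 in TTC. By 5-mer, 28 had AGACA and 25 had GGACC, while GGACT and TGACC supplied 1 each and TGACT 0. At position 9, 57 of the 96 (59.4%) had A and 5 had G.

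The first 2 bases had a smaller range than the last 2. Over 144 members each, medians ran from 0.727 for TG to 1.01 for GA at positions 1 and 2, and from 0.711 for TG to 1.10 for AT at positions 8 and 9. Of the members ending in TG, 5 (3.47%) were called higher, beside 17.3% of all 9-mers, and 105 (72.9%) lower, beside 47.2%.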
